A study of Mus musculus with 28 samples.

Results

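The comparison described here is the last step of a reprogramming time course in mouse cells labelled WT, from day 6 (d6) to day 8 (d8). It was taken by label from 1 table of RNA-seq read counts: 2 libraries of WT cells at d8 were set against 2 libraries of WT cells at d6, which makes 4 of the 28 libraries in the table, and every gene in the table was kept for the comparison. The whole table holds 14 groups of 2 libraries, namely WT and K36M cells at d0, d2, d4, d6 and d8, as passaged induced pluripotent stem cells (iPSCs), and without the reprogramming factors (noOKSM). The d0 cells are mouse embryonic fibroblasts (MEFs) grown in DMEM with serum, the d2 to d8 cells carry Oct4, Klf4, Sox2 and Myc, together OKSM, in a medium named AGi, and the iPSCs were kept in a medium named S/L. Both the d6 and the d8 cells of this step were therefore WT, with OKSM, in AGi. The count columns of the WT cells bear the name H3_3 and those of the other genotype K36M. How the factors and H3.3 were introduced, how many animals the MEFs came from, and whether the 2 libraries of a group came from separate cultures is not stated in the sources used here. The p-values therefore cover only variation among libraries, part of which may be technical. All libraries are of bulk poly(A) RNA, in which more cells of a kind and more RNA per cell cannot be told apart.

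Reprogramming by OKSM turns fibroblasts into pluripotent cells over days to weeks. Fibroblasts first lose their mesenchymal programme and gain epithelial adhesion, a mesenchymal-to-epithelial transition, and the cells that go on later switch on their own pluripotency network, in which Nanog, Esrrb, Sall4, Prdm14 and other factors sustain one another. Late pluripotency genes are commonly held silent by DNA methylation in fibroblasts, and most cells in a culture do not reach that stage.

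The 4 libraries held 19700596 to 34324483 counts, within the range of 17507521 to 35622279 over the series. Levels below are CPM, counts scaled to a common library size and corrected for library composition, and are compared between libraries, not between genes. The 2 d6 libraries had a log-CPM correlation of 0.994 across genes and the 2 d8 libraries 0.995. More than 2-fold differences were found at 680 genes between the 2 d6 libraries and 427 between the 2 d8 libraries, and at 1315 and 1266 between the like-numbered libraries of the 2 days. The K36M d6 pair stood apart from every other pair, with a mean chi-square per gene of 73.1 against 2.47 to 34.9 for the other 13 pairs; those libraries enter the WT step only through the shared estimate of spread. H3f3a, 1 of the 2 genes that encode histone H3.3, was at 212 and 218 CPM at d6 and at 191 and 195 CPM at d8 (log2 change -0.16 ± 0.11, SE; adjusted p = 0.376), where WT d0 averaged 46.2 and WT iPSCs 60.9 CPM. By the summed level of marker genes, a bulk average, the d6 and d8 libraries lay between those of d0 and those of iPSCs. The sum of 9 fibroblast markers was 1810 and 1760 CPM at d6 and 2030 and 1910 at d8. It was 19200 and 23700 CPM at d0 and still 795 and 1270 CPM in WT iPSCs. The sum of 10 iPSC markers was 67.5 and 63.9 CPM at d6, 292 and 298 at d8, and 5180 and 5210 in WT iPSCs.

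Between d6 and d8 the transcriptome of WT cells changed at 2722 of the 16932 genes tested (16.1%; edgeR quasi-likelihood test, adjusted p below 0.05). The 2 d6 and the 2 d8 values did not overlap at any of these 2722 genes, and the same held at 61.2% of all genes tested. Where a lack of overlap is given below for called genes, it therefore adds nothing to the call. Of the 2722 genes, 1551 rose (9.16% of those tested) and 1171 fell (6.92%). The counts of gene lists below are to be read against these 2 shares. The rises were larger: 556 genes rose at least 2-fold (3.28%) and 85 fell at least 2-fold (0.502%), together 3.79% of those tested, 243 against 6 changed at least 4-fold, and 108 against 1 at least 8-fold. Genes that rose had a median log2 change of 0.67 from a median level of 12.5 CPM at d6, and genes that fell had a median size of 0.50 from 41.2 CPM. The median log2 change over all genes tested was 0.00432. Genes that rose at least 2-fold held 0.234% and 0.216% of all counts at d6, 0.666% and 0.687% at d8 and 2.81% and 2.80% in iPSCs.

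The number of calls depended on the libraries in the fit. It was 1627 without the first d6 library, 1083 without the second, 1379 without the first d8 library and 1613 without the second, in fits where the lone library was assumed to vary like the other groups, and it rose to 4422 when the K36M d6 libraries were left out. With offsets for transcript length and GC content, an alternative chosen after seeing the data, 4230 genes passed and 46.4% of them rose, in place of 57% in the fit used here; the 2-fold counts stayed within 1.5 times. A test against a 1.5-fold change kept 327 genes, 310 of them higher at d8.

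**Figure D1:**
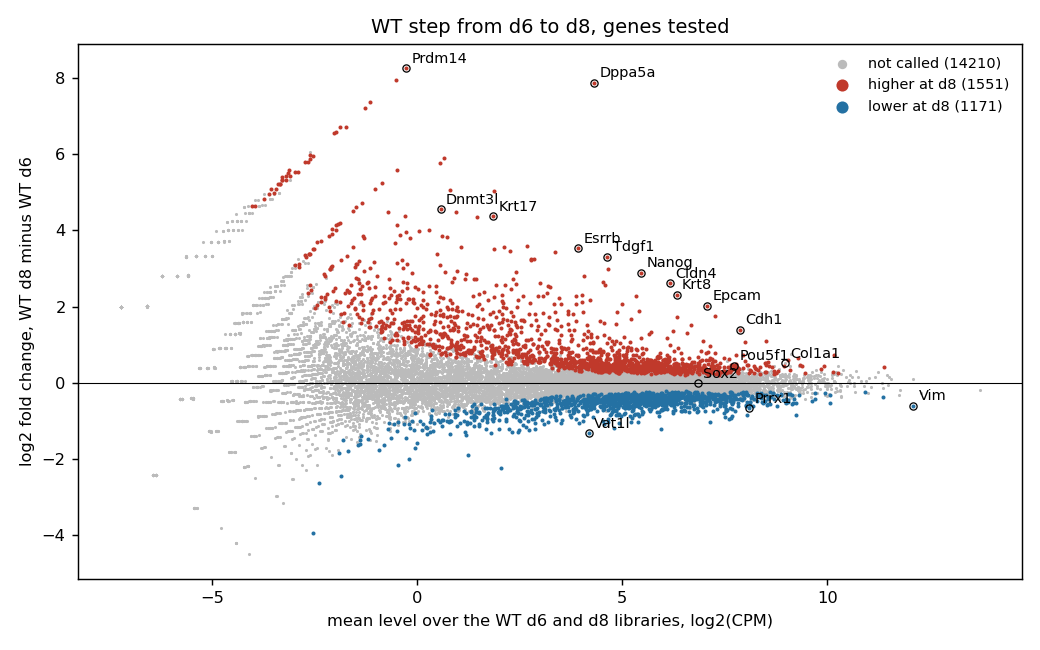
Mean level over the 4 libraries (horizontal, log2 CPM) against the log2 fold change from d6 to d8 (vertical) for each gene tested, with genes called higher in red, called lower in blue and not called in grey; 155 genes at 0 in all 4 libraries are not drawn. The red points reach far higher than the blue points reach low. Of the ringed factors that were not called, Sox2 lies near 0 and Pou5f1 at 0.46.

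Of the introduced factors, none passed the test in the fit used here. In other fits 1 rose with DESeq2 or with no filter on low counts, and 1 fell with only the 4 WT d6 and d8 libraries. Pou5f1, which encodes Oct4, was at 200 and 159 CPM at d6 and 227 and 266 at d8 (log2 fold change 0.46 ± 0.18; adjusted p = 0.0995). Sox2 was at 129 and 100, then 110 and 118 CPM (-0.01), Klf4 at 229 and 181, then 155 and 185 CPM (-0.27), and Myc at 259 and 217, then 245 and 222 CPM (-0.03). The libraries of the 2 days overlapped for Sox2, Klf4 and Myc and did not for Pou5f1. A count per gene does not separate an introduced copy from the cell's own. Pou5f1 averaged 1.72 CPM at d0 and 163 at d4, and 918 in iPSCs.

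Most tested transcription factors of the pluripotency network rose. Of 22 tested, 15 rose, 12 of them at least 2-fold, and none fell (median log2 change 1.34, against 0.00432 over all genes). Nanog, the homeodomain factor at the centre of the network (chromosome 6, 122657507 to 122664651, plus strand; coordinates in the mm9 build), was at 10.4 and 10.6 CPM at d6 and at 73.0 and 82.1 at d8. Both d8 libraries lay far above both d6 libraries, a 7.39-fold rise with a log2 change of 2.89 ± 0.12 (adjusted p = 1.72e-13). Esrrb, an orphan nuclear receptor of naive pluripotency (chromosome 12, 87702067 to 87862578), was at 2.71 and 2.12, then 28.1 and 27.8 CPM, a log2 change of 3.53 ± 0.31 (adjusted p = 1.92e-07). Sall4, a zinc finger factor, went from 17.1 and 12.0 to 47.5 and 37.6 CPM (1.54 ± 0.18). Utf1, a chromatin-bound factor, went from 5.10 and 3.22 to 30.1 and 28.3 CPM (2.80 ± 0.28). For each of these the pairs were well apart, and the iPSC means were higher still, at 429 CPM for Nanog, 668 for Esrrb, 249 for Sall4 and 302 for Utf1.

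Several factors of the list were seen at d8 with next to no counts at d6. Prdm14, a PR-domain factor that restrains DNA methylation and differentiation signals, had 0 counts in both d6 libraries and 1.70 and 1.61 CPM at d8, which is at least 23.4-fold higher when d6 is set to a floor of 3 counts over the group. Zfp42, also known as Rex1 and a classical marker of pluripotent cells, had 3 counts at d6 and 98 at d8 over the 2 libraries, a ratio of CPM of 22.7 with a 95% counting interval from 7.53 to 112. Foxd3 had 2 and 72 counts, a ratio of 25.0 (6.67 to 210). Intervals and floors cover counting error only. All 3 passed the test across genes, Prdm14 with an adjusted p of 3.5e-05, Zfp42 with 0.000465 and Foxd3 with 0.00229.

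The promoter of Zfp42 is shown because it holds, in capitals, the octamer letters to which Oct4 family factors bind. The sequence is the 250 bases before the start of the gene in RefSeq (GRCm38.p6, chr8:43307010-43307259, minus strand, printed 5' to 3'), and the octamer, in its reverse complement, begins 186 bases before the start.
Zfp42: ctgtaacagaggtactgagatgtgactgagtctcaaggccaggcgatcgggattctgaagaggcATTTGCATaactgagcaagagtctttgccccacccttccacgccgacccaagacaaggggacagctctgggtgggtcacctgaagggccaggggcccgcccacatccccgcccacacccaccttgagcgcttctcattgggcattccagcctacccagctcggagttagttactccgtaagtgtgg
The letters ATGCAAAT on either strand were found in the 250 bases before the start of 12 of the 358 genes with a promoter entry that rose at least 2-fold (3.35%), in 181 of 11133 tested genes with an entry (1.63%), and in 1.60% of all 32851 promoters. A match is a description of the letters and not evidence of a bound factor.

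Other genes associated with pluripotent cells were read next. Of 25 tested, 19 rose and 1, the uridine phosphorylase gene Upp1, fell (-0.96; named for being the only faller, after its value was seen); the median log2 change was 1.34. Dppa5a, an RNA-binding protein of pluripotent cells (chromosome 9, 78214859 to 78215984, minus strand), was at 0.0919 and 0.241 CPM at d6 and at 43.8 and 35.8 CPM at d8. This was the largest rise among genes above 5 CPM on average, at 234-fold (log2 change 7.87 ± 0.76; adjusted p = 1.94e-06), and in iPSCs the mean was 1877 CPM. Near-identical copies of Dppa5a in the genome could share its reads, and how such reads were counted is not given. Lin28a, which blocks maturation of let-7 miRNAs, rose from 1.42 and 1.06 to 9.00 and 9.78 CPM (2.91 ± 0.21). Mylpf, a myosin light chain kept in the list because it is high in pluripotent cells, rose from 1.42 and 1.20 to 12.7 and 12.0 CPM (3.23 ± 0.31).
The Dppa genes of late reprogramming moved from near 0: Dppa3 from 0.230 and 0.193 to 6.51 and 7.68 CPM (5.04 ± 0.38), and Dppa4 from 2 counts to 192, a ratio of 66.6 (18.2 to 554). Tcl1, a cofactor of Akt kinases, had 0 counts at d6 and 34 at d8, at least 7.86-fold higher by the floor of 3 counts. Alpl, the alkaline phosphatase used to stain reprogrammed colonies, went from 19.07 and 17.1 to 67.7 and 66.4 CPM (1.89 ± 0.22; adjusted p = 4.04e-06). In each of these genes the d6 and d8 libraries did not overlap.

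The Nodal pathway is a signal of the TGF-beta family that pluripotent cells make and receive. Of its 13 tested members 7 rose and 1, Smad3 (-0.29), fell, with a median of 0.58. Tdgf1, also called Cripto, is the coreceptor and rose from 5.47 and 3.66 to 43.2 and 47.3 CPM (3.31 ± 0.27; adjusted p = 3.45e-08). Lefty2, a secreted inhibitor of Nodal, rose from 1.42 and 1.16 to 12.5 and 12.3 CPM (3.26 ± 0.18; adjusted p = 9.18e-11), and its relative Lefty1 from 0.459 and 1.25 to 3.15 and 2.58 CPM (1.73 ± 0.38). Foxh1, the DNA-binding partner of Smad2 in this pathway, rose from 2.25 and 1.83 to 9.62 and 10.3 CPM (2.28 ± 0.17). The pairs of d6 and d8 values did not overlap for any of the 4 genes.

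Epithelial genes formed the other large group of rises. Of 24 tested genes of cell adhesion and keratins, 19 rose, 16 kept a call against a 1.5-fold change, and none fell; of 23 tested epithelial regulators and proteases 19 rose and none fell. Each list had a median log2 change of 1.61. Cdh1, the adhesion molecule E-cadherin (chromosome 8, 109127251 to 109194146), was at 142 and 117 CPM at d6 and 358 and 321 CPM at d8 (1.39 ± 0.15; adjusted p = 1.04e-06). Epcam, an epithelial surface protein, went from 54.6 and 51.0 to 226 and 204 CPM (2.03 ± 0.10; adjusted p = 6.47e-12), and the tight junction genes Cldn4 from 21.9 and 18.4 to 130 and 118 CPM (2.61 ± 0.14) and Cldn7 from 5.97 and 5.20 to 46.7 and 42.1 CPM (2.99 ± 0.15). Cdh1 had averaged 0.188 CPM at d0 and 21.6 at d4, and Epcam 0.342 and 8.43. Krt8, a keratin of simple epithelia, rose from 26.5 and 27.2 to 137 and 129 CPM (2.31 ± 0.10), above its iPSC mean of 18.8 CPM.

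Regulators of the epithelial state were among the risers. Grhl2, a Grainyhead factor that opens epithelial enhancers, rose from 2.94 and 2.36 to 15.4 and 15.6 CPM (2.55 ± 0.17; adjusted p = 5.02e-09). Esrp1, which directs epithelial splicing, rose from 19.2 and 16.4 to 59.1 and 54.3 CPM (1.67 ± 0.12), and Ovol1, a repressor of mesenchymal genes, from 0.276 and 0.241 to 1.08 and 0.913 CPM (1.91 ± 0.49; adjusted p = 0.00991). Rab25, a small GTPase of epithelial recycling endosomes, rose from 1.15 and 0.818 to 11.4 and 12.4 CPM, a 12.0-fold change (3.59 ± 0.20; adjusted p = 9.18e-11). Ap1m2, a subunit of the epithelial sorting adaptor AP-1B, rose from 6.75 and 5.82 to 40.3 and 38.9 CPM (2.65 ± 0.13), and Lad1, an anchoring filament protein, from 1.61 and 1.11 to 13.7 and 12.3 CPM (3.25 ± 0.29). The d8 value of every one of these 6 genes exceeded both d6 values.

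The promoter of Rab25 is shown because it holds, in capitals, letters bound by Grainyhead factors (RefSeq, GRCm38.p6, chr3:88548280-88548529, minus strand, printed 5' to 3'); they begin 102 bases before the start.
Rab25: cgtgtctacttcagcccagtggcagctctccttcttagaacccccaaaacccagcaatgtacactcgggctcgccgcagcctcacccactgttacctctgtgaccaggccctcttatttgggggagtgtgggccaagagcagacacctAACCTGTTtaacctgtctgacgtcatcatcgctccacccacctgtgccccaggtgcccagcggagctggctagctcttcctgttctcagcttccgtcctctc
The motif AACCNGTT, searched on both strands, was found in 12 of 358 promoters of genes that rose at least 2-fold (3.35%), 212 of 11133 of tested genes (1.90%) and 1.79% of all promoters. Among the 11 epithelial regulators with an entry Rab25 was the 1 that held it, and no gene of the 15 in the adhesion list did.

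Several keratins of stratified epithelia rose too. Of 13 tested keratinocyte markers 7 rose and none fell (median 2.13). Krt17 went from 0.322 and 0.337 to 7.05 and 6.74 CPM (4.36 ± 0.27; adjusted p = 1.34e-09), Krt16 from 0.0919 and 0.0963 to 3.77 and 2.96 CPM (5.07 ± 0.45) and Krt14 from 0.505 and 0.578 to 4.56 and 3.47 CPM (2.86 ± 0.34). Krt6a went from 0.0459 and 0.144 to 1.74 and 1.37 CPM (3.95 ± 0.63) and had no counts in iPSCs. Trp63, which encodes the master regulator p63 of keratinocytes, did not pass (-0.99). Krt16 and Krt14 averaged 0.736 and 0.374 CPM in iPSCs, below d8, and Krt17 16.4 CPM, above it. These keratins have close copies, and how reads shared between copies were counted is not given. The 13 markers together summed to 515 and 552 CPM at d6 and 699 and 640 at d8, of which Perp, a desmosome gene that did not pass, gave 469 and 509, then 526 and 502 CPM.

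Part of the mesenchymal transcription factors fell, by small amounts. Of 26 tested, 12 fell and none rose, with a median of -0.36. Prrx1, a homeodomain factor of limb and connective tissue mesenchyme (chromosome 1, 165175247 to 165243841), was at 319 and 348 CPM at d6 and at 210 and 211 CPM at d8 (-0.66 ± 0.14; adjusted p = 0.00168). Runx2, a regulator of bone formation, fell from 20.0 and 19.3 to 13.4 and 11.8 CPM (-0.64 ± 0.15), and Twist2, a helix-loop-helix factor, from 2.44 and 3.71 to 1.95 and 2.04 CPM (-0.61 ± 0.20; adjusted p = 0.0396). Twist1 (-0.56 ± 0.13) and Zeb2, a repressor of Cdh1 (-0.53 ± 0.15), fell also, whereas Snai2 was at 5.56 and 5.25, then 3.32 and 3.76 CPM and missed the threshold (-0.60 ± 0.21; adjusted p = 0.0587), as did Snai1 (-0.11 ± 0.21). Among members that passed, the largest fall was that of Meox2, from 3.91 and 5.73 to 2.74 and 2.39 CPM (-0.92 ± 0.25). The number of falls was 3 to 8 when any of the 4 libraries was left out, and no member fell in the test against a 1.5-fold change.

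A minority of the structural genes of fibroblasts passed the test in this step, where 9.16% of all genes tested rose and 6.92% fell. Of the 9 fibroblast markers summed above 2 fell and none rose, with a median of 0.20. The 2 that fell were the transcription factors Prrx1 and Twist2 counted above, and the other 7 did not pass. All 10 iPSC markers rose, among them Nanog, Dppa5a and Tdgf1, which are counted in lists above. Of 32 tested genes of matrix and cell surface 4 fell and 1 rose, with a median of 0.03. Vim, the intermediate filament vimentin, was at 5224 and 5292 CPM at d6 and at 3697 and 3253 CPM at d8 (-0.60 ± 0.12; adjusted p = 0.0018). Cdh2, N-cadherin, fell from 66.7 and 73.2 to 45.2 and 47.8 CPM (-0.59 ± 0.18), and Col6a1 from 658 and 672 to 470 and 443 CPM (-0.54 ± 0.17). Col1a1, the main fibrillar collagen chain, did not pass, with 441 and 389 CPM at d6 and 625 and 557 at d8 (0.51 ± 0.20; adjusted p = 0.0963), and Col5a1 rose from 140 and 132 to 200 and 191 CPM (0.52 ± 0.16; adjusted p = 0.0308). Without any 1 of the 4 libraries 1 gene of the list fell and none rose. Between d0 and d4 these genes had gone different ways: Col1a1 averaged 10681 CPM at d0 and 277 at d4, Col5a1 2891 and 107, and Cdh2 161 and 83.5, whereas Vim averaged 6572 and 6518 and Col6a1 292 and 794. Thy1 (0.04) and Acta2 (-0.18), a surface marker and an actin of activated fibroblasts, did not pass.

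**Figure D2:**
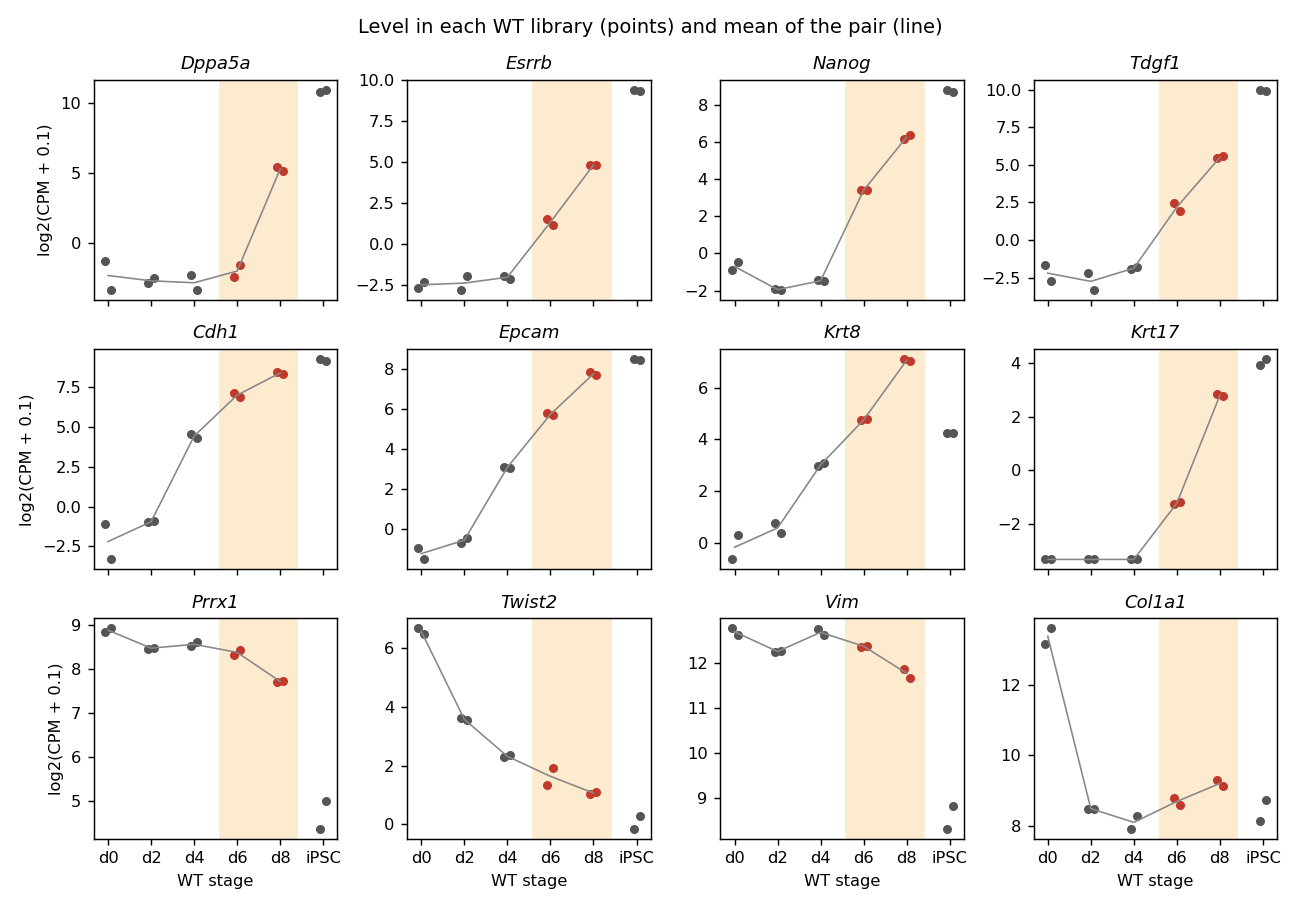
Level of 12 genes in each WT library as log2(CPM + 0.1) from d0 to d8 and in iPSCs (points), with lines through the pair means and the d6 and d8 libraries in red on a shaded band. Dppa5a leaves the baseline between d6 and d8 while Cdh1 and Epcam climb from d2, Krt8 at d8 is above its iPSC level, and Col1a1 falls before d2 and not in this step.

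The 15 largest falls among genes above 5 CPM on average were small beside the 15 largest rises, from -1.32 to -1.04 on the log2 scale against 2.61 to 7.87. Vat1l, a membrane transport protein homolog (chromosome 8, 116729512 to 116897971), led them at 27.3 and 24.6 CPM at d6 and 9.66 and 11.0 at d8 (-1.32 ± 0.15; adjusted p = 1.36e-06). Fbn2, the microfibril protein fibrillin 2, fell from 95.3 and 78.0 to 35.5 and 39.0 CPM (-1.22 ± 0.22), Prss35, a serine protease homolog, from 39.2 and 38.5 to 16.1 and 18.0 CPM (-1.18 ± 0.15), and Snap91, a clathrin adaptor of synapses, from 31.0 and 33.1 to 16.1 and 14.4 CPM (-1.08 ± 0.19). Slc38a4, an amino acid transporter, fell from 38.9 and 42.2 to 16.8 and 22.3 CPM (-1.04 ± 0.11; adjusted p = 3.03e-07), although its iPSC mean was 267 CPM. Only genes whose d6 and d8 libraries did not overlap were ranked, so the separation of these 5 genes was set by the choice. Of the 15, 11 had a higher mean at d4 than at d0 (Vat1l 30.9 against 0.439 CPM, Prss35 68.3 against 8.19), and 12 had an iPSC mean under the d8 mean. A higher mean at d4 than at d0 was as frequent among the 15 largest rises, at 11, so it did not set the falls apart. Of the 15 largest rises, 14 had an iPSC mean above the d8 mean; the exception was Rab25, at 8.65 CPM in iPSCs. The other 14 were Dppa5a, Esrrb, Gpx2, Tdgf1, Lefty2, Lad1, Mylpf, Cldn7, Lin28a, Nanog, Utf1, Sh3gl2, Ap1m2 and Cldn4. None of these comparisons of means was counted over all genes tested.

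Of 11 tested enzymes and cofactors of DNA methylation and its removal, 5 rose, 6 did not pass and none fell (median 0.31); 3 to 5 rose when any of the 4 libraries was left out. Tet1, which oxidises methylated cytosine, rose from 7.40 and 6.40 to 36.9 and 45.1 CPM (2.57 ± 0.14; adjusted p = 1.19e-11), and the de novo methyltransferase Dnmt3b from 15.0 and 10.3 to 43.7 and 47.7 CPM (1.85 ± 0.13; adjusted p = 8.4e-10). Dnmt3l, a cofactor of the de novo enzymes, went from 0.138 and 0.0963 to 2.53 and 3.17 CPM (4.56 ± 1.23; adjusted p = 0.0168), and Uhrf1, which guides maintenance methylation, from 122 and 97.7 to 157 and 177 CPM (0.61 ± 0.11). The d6 and d8 libraries of these 4 genes did not overlap. Of 27 Polycomb subunits 5 rose and 1 fell. Among the rises was Ezh2, the H3K27 methyltransferase, from 80.8 and 81.1 to 109 and 114 CPM (0.46 ± 0.08). Over all genes tested 9.16% rose and 6.92% fell. None of 12 tested H3K36 enzymes and neither of the 2 H3.3 genes passed; H3f3b was at 342 and 366, then 375 and 374 CPM. With the K36M d6 libraries left out of the fit 3 H3K36 enzymes fell, and 8 Polycomb subunits rose and 5 fell.

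Genes of the germline, many of them kept silent in somatic cells by promoter methylation, rose in part. Of 27 tested, 8 rose and none fell (median 0.91). Piwil2, a Piwi protein, rose from 1.56 and 0.626 to 6.14 and 6.82 CPM (2.56 ± 0.24; adjusted p = 1.05e-07), Tdrd12, a partner in piRNA production, from 0.322 and 0.626 to 3.44 and 3.04 CPM (2.76 ± 0.37), and Tex19.1 from 0.230 and 0.0481 to 2.03 and 2.58 CPM (4.00 ± 0.55). Rhox6 had 1 count at d6 and 68 at d8, a ratio of 47.2 (8.19 to 1890). In iPSCs 26 of the 27 were higher than at d0. The letters CACGTG, an E-box that repressors of germline genes bind, stood in the 250 bases before the start of 12 of the 22 members with a RefSeq entry (54.5%), against 9.56% of tested genes. Of these 12, 2 rose, Syce2 and Stag3, and their median level at d8 was 0.140 CPM; of the 10 without the letters 4 rose, with a median of 0.962 CPM. Those 2 counts are a description and their difference was not tested. Promoters of a meiotic gene that rose and of one that did not, both chosen after their values were seen, are shown with the E-box in capitals. Syce2, a synaptonemal complex protein, was at 7.17 and 5.87, then 18.0 and 19.7 CPM (1.53 ± 0.14; adjusted p = 8.42e-08); the window before its second RefSeq start is chr8:84872008-84872257, plus strand, with the E-box 88 bases before that start. Sycp3, another protein of that complex, was at 0 and 0.0963, then 0.166 and 0.161 CPM (adjusted p = 0.219); its window is chr10:88459337-88459586, plus strand, with E-boxes 64 and 43 bases before the start.
Syce2: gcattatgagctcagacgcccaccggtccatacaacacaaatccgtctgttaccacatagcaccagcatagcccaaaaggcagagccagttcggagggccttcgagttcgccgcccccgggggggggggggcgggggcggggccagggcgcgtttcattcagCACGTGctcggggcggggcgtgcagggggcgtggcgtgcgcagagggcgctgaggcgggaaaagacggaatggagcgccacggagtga
Sycp3: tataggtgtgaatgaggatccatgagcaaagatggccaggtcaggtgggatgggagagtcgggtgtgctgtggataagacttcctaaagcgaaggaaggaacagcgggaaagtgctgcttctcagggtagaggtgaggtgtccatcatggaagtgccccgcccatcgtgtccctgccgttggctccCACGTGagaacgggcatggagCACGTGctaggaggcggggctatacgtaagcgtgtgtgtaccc
Both windows are in GRCm38.p6, 5' to 3'.

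Part of the cell division genes rose, by small amounts, where 9.16% of all genes tested rose and 6.92% fell. Of 24 tested mitosis genes 11 rose, 13 did not pass and none fell, and of 26 replication genes 13 rose, 13 did not pass and none fell; both lists had a median of 0.32. Mcm3, a subunit of the replicative helicase, went from 117 and 101 to 177 and 169 CPM (0.66 ± 0.09; adjusted p = 1.42e-05), and Bub1b, a spindle checkpoint kinase, from 79.9 and 74.2 to 112 and 130 CPM (0.65 ± 0.11). Neither gene's libraries overlapped between the days. The mitosis count was 4 to 8 and the replication count 7 to 12 when any of the 4 libraries was left out, and they were 22 and 16 without the K36M d6 libraries. Among 24 tested senescence and p53 target genes 3 fell (Ei24, Bbc3 and Fas) and none rose, and this count moved from 0 to 2 without any of the 4 libraries and to 9 without the K36M d6 pair. Cdkn2a, which encodes inhibitors of the cell cycle that accumulate in senescence, was at 199 and 207, then 275 and 225 CPM (adjusted p = 0.145), and Cdkn1a, a p53 target that encodes another such inhibitor, at 959 and 958, then 872 and 857 CPM (adjusted p = 0.351).

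Among metabolic genes the serine and one-carbon list held most of the rises, where 9.16% of all genes tested rose and 6.92% fell. Of 22 tested genes of serine, glycine and one-carbon metabolism 15 rose and none fell (median 0.38). Amt and Gldc encode subunits of the mitochondrial glycine cleavage system. Amt rose from 2.30 and 2.17 to 12.9 and 14.4 CPM (2.61 ± 0.14; adjusted p = 1.19e-11) and Gldc from 7.72 and 6.55 to 25.9 and 26.0 CPM (1.86 ± 0.15). Of 21 glycolysis genes 5 rose, 16 did not pass and none fell, among them the lactate exporter Slc16a3, from 5.38 and 4.57 to 19.9 and 28.3 CPM (2.28 ± 0.19), and the glucose transporter Slc2a3, from 238 and 227 to 462 and 529 CPM (1.09 ± 0.09). The glycolysis count was 10 without the K36M d6 libraries. Of 20 cholesterol synthesis genes 2 rose and 18 did not pass, which is near the share over all genes.

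Other signalling and somatic lists held both rises and falls, where 9.16% of all genes tested rose and 6.92% fell. In the Wnt list 7 of 33 rose, led among genes seen on both days by T, the mesoderm factor brachyury, from 0.414 and 0.193 to 1.83 and 1.64 CPM (2.47 ± 0.51), and 2 fell; 1 to 5 rose when any of the 4 libraries was left out. Of 22 BMP genes 5 fell and 1 rose, among the falls the ligand Bmp6, from 57.6 and 58.4 to 36.5 and 39.7 CPM (-0.61 ± 0.11). Of 14 Yap and Tead targets 5 fell, the 23 genes of contraction and the TGF-beta response had 4 falls and 2 rises, and of 27 cytokine and inflammatory genes 5 fell, led by the chemokine Ccl2 from 31.2 and 35.5 to 17.8 and 16.7 CPM (-0.95 ± 0.19; adjusted p = 0.00118). Hox genes, which keep positional identity in fibroblasts, had 6 falls and 1 rise among 35, with Hoxa7 from 10.3 and 9.10 to 6.01 and 5.00 CPM (-0.83 ± 0.16). Of 26 imprinted genes 4 rose and 2 fell. Igf2, 1 of the risers, was at 84.9 and 75.4 CPM at d6 but at 100 and 244 CPM in the 2 d8 libraries (1.11 ± 0.31), a spread wider than that at d6. When any of the 4 libraries was left out, falls numbered 2 to 4 in the BMP list, 0 to 2 among Yap and Tead targets, 1 to 3 among genes of contraction and the TGF-beta response, 2 to 4 among cytokines, 1 to 3 among Hox genes and 1 to 2 among imprinted genes, in which 1 to 5 rose. Of 14 AP-1 and immediate early genes 3 rose and 3 fell, of 21 matrix proteases 2 and 3, of 26 interferon genes 2 and 1, of 13 H3.3 genes and chaperones 2 and 0, and of 16 staging surface genes 5 and 1.

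**Figure D3:**
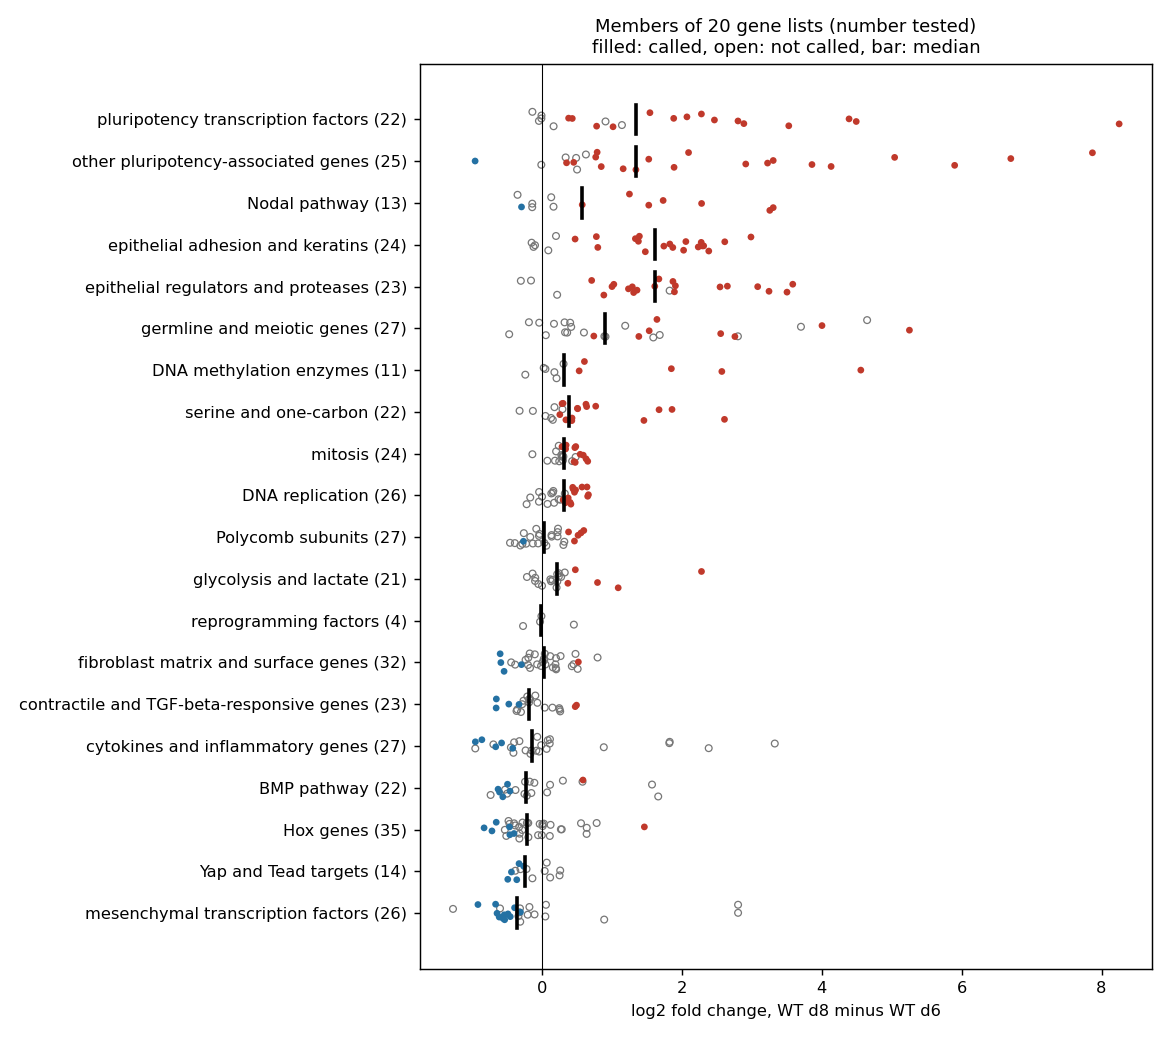
Log2 fold change from d6 to d8 (horizontal) of each tested member of 20 gene lists, with called members filled (red higher, blue lower), members not called open and the list median as a bar. The pluripotency and epithelial lists lie to the right with medians of 1.34 and 1.61, the division lists are shifted to 0.32, and the mesenchymal factors lie to the left at -0.36.

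Markers of other cell types were counted in the same way, to be read against the 9.16% of all genes that rose and the 6.92% that fell. Trophoblast markers had 4 rises among 12 tested (Elf5, Krt7, Tfap2c and Esx1; 2 to 4 with 1 library left out) and none of the placental genes Prl3d1, Prl8a9 and Tpbpa had a count; the summed level was 50.7 and 43.4 CPM at d6 and 82.2 and 74.9 at d8. Of 12 endothelial markers 3 rose, Pecam1, which pluripotent cells also express, Cldn5 and Egfl7, at sums of 99.0 and 106, then 91.8 and 96.5 CPM, with Emcn and Erg at 0. Macrophage markers had 1 rise, Lyz2, and 1 fall, Itgam, among 13, at 21.7 and 24.7, then 16.9 and 16.6 CPM. Endoderm markers had 1 rise (Amn) and 1 fall (Cubn) among 13, at 1040 and 978, then 1010 and 1040 CPM, with Foxa2, Sox17 and Ttr at 0. Among 11 neural markers 1 fell (Syt1), at sums of 473 and 486, then 526 and 492 CPM. Pericyte markers had 1 rise (Notch3) and 1 fall (Rgs5) among 7, cartilage and bone markers 2 rises (Alpl and Sox9) and 1 fall (Col10a1) among 8, adipocyte markers 1 rise (Fabp4) and 1 fall (Lpl) among 5, and skeletal muscle markers no call among 6. Fabp4 had 0 counts at d6 and 16 at d8, at least 3.70-fold higher by the floor of 3 counts. No marker of the 2-cell stage was high enough to be tested. The part of any such cells in the results was not tested.

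A set of genes was first seen at d8. With a mean under 0.5 CPM in WT d0, d2, d4 and d6 and at least 1 CPM in both d8 libraries, 63 genes met the rule, and the mirror rule for genes lost at d8 (at least 1 CPM at d0 to d6 and under 0.5 in both d8 libraries) was met by 0. Since the rule used the d6 and d8 levels, this is a description. The highest were Dppa5a, Dppa3, Krt17, Trap1a (4.52 and 6.02 CPM at d8), Ndufa4l2 (3.48 and 4.30), Lrrc31 (2.99 and 4.41), Rimklb (3.65 and 3.28), Krt16, Tdrd12 and Dppa4. In iPSCs 54 of the 63 had a mean of at least 1 CPM and 51 a mean above that at d8. For 7 the iPSC mean was under 0.5 CPM.

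To place the step on the whole path, the same genes were read in WT iPSCs against WT d0, a comparison that shares no library with the step but differs in medium. There 13114 of the genes tested were called (77.5%), 40.1% higher and 37.4% lower in iPSCs. Of the 1551 genes that rose from d6 to d8, 1263 (81.4%) were higher in iPSCs than at d0 and 144 (9.28%) lower, and of the 1171 that fell 873 (74.6%) were lower and 136 (11.6%) higher. Called in both were 2416 genes, of which 2136 (88.4%) changed in the same direction. Of the 85 genes that fell at least 2-fold 37 were lower in iPSCs than at d0, 11 higher and 37 not called. In the early step from d0 to d4, which also differs in medium, 28.3% of tested genes rose and 29.1% fell. Of the 1171 falling genes 521 (44.5%) had risen in that early step and 402 (34.3%) had fallen, and of the 85 strong falls 48 (56.5%) had risen. Of the 556 strong rises 302 had not been called in that early step.

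K36M cells took the same 2 days from another starting point. Their step called 7909 genes (46.7%), with 23.8% of all genes tested higher and 22.9% lower at d8. The test of the difference between the WT and the K36M step called 6591 (38.9%). Of all genes tested 21% (3554) had a higher and 17.9% (3037) a lower WT change. The 2 steps share no library. Technical measures move with this comparison. The K36M d6 pair stands apart as given above. Across 15293 genes with a transcript model the difference had a Spearman rho of -0.53 with transcript length and 0.25 with GC content. The WT step itself had -0.19 and 0.17, and the K36M step had 0.56 and -0.21. With offsets for transcript length and GC content the difference was called at 5407 genes in place of 6591. Beyond that fit, the part of these measures in the result was not tested. Among 22 pluripotency factors 13 had a higher and 2 a lower change in WT. Among 23 epithelial regulators 18 had a higher and 0 a lower one. Of the 15 largest WT rises 14 had a K36M d6 mean already above the WT d8 mean. These 15 were chosen by their rise in WT, and the share over all genes was not counted. The 2 K36M d6 libraries lay apart at some of them, as at Dppa5a with 400 and 135 CPM. Dppa5a averaged 267 CPM in K36M cells at d6 and 354 at d8, so the WT step was larger by 7.46 on the log2 scale (adjusted p = 1.53e-05). Nanog averaged 179 and 214 CPM in K36M cells (difference 2.63 ± 0.19; adjusted p = 1.23e-10) and Cdh1 721 and 921 CPM (difference 1.04; adjusted p = 0.000566). Krt17 averaged 42.2 CPM at d6 and 19.05 at d8 in K36M cells, against 0.329 and 6.90 in WT (difference 5.51; adjusted p = 5e-10). Vim was at 308 and 118 CPM in K36M cells and Prrx1 at 6.64 and 2.58, both under the WT d8 values of 3475 and 211 CPM. Of the 22 genes of serine and one-carbon metabolism 15 rose in WT cells, where 9.16% of all genes tested rose. In K36M cells 15 of them fell and 2 rose. The difference passed for 18, each with a higher WT change.

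**Figure D4:**
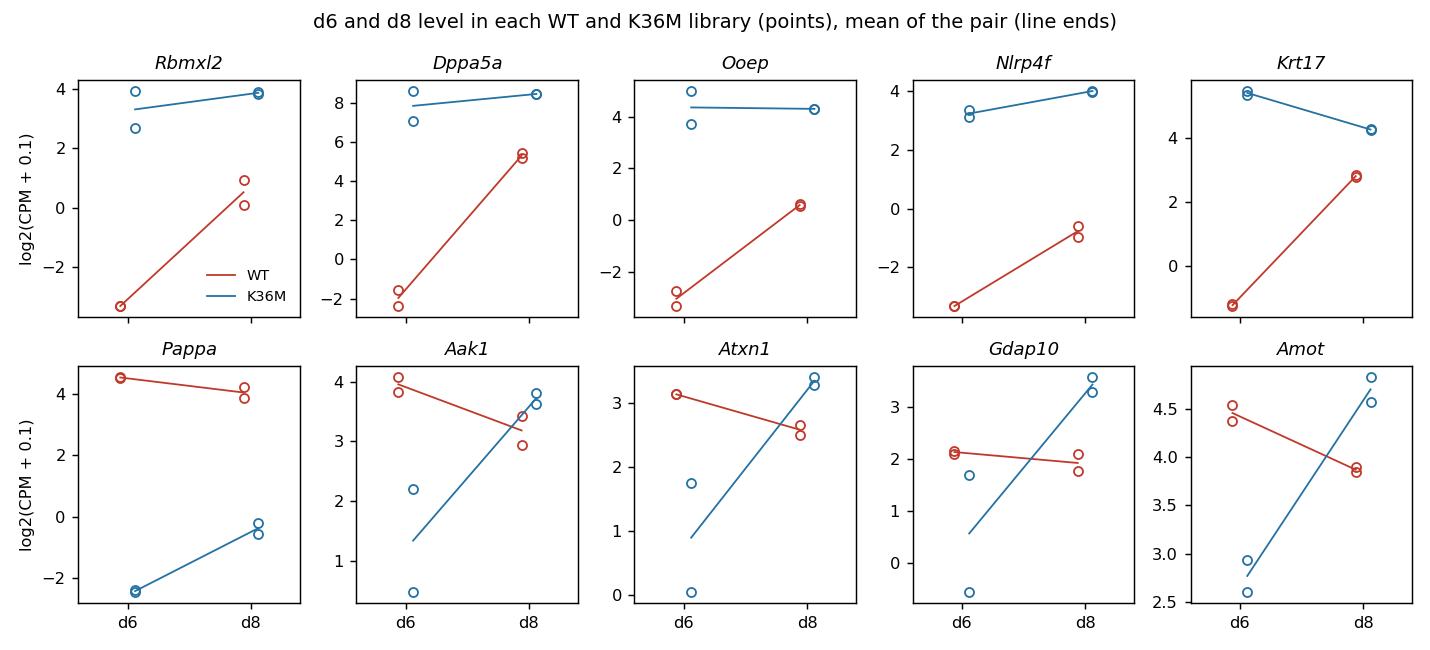
Level at d6 and d8 as log2(CPM + 0.1) in each WT (red) and K36M (blue) library for the 5 genes with the largest positive and the 5 with the largest negative difference between the steps, lines joining pair means. In the upper row WT starts near the floor and K36M is already high; the K36M d6 points of several genes lie far apart.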

How the data were processed

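Poly(A) RNA was sequenced on an Illumina HiSeq instrument from directional NEBNext libraries, per the labels' protocols. The deposited data are 1 table of raw counts for 37620 genes in 28 libraries; STAR 2.5.0, HTSeq 0.11.2, edgeR and the mm9 build are named in the submitters' processing notes, while the strand setting and annotation used for counting are not given in those sources. All count columns matched a sample's labels (0 unused).

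Counts of all 28 libraries, in 14 groups of 2, were fitted in R 4.3.3 with edgeR 4.0.16 (TMM scaling, genes with at least 10 counts in enough libraries and 15 in all, robust quasi-likelihood F test, two-sided), which left 16932 genes and 14 residual degrees of freedom. Calls have a Benjamini-Hochberg adjusted p below 0.05 over all genes tested; errors are SE of the log2 fold change, and each group has n = 2. On simulated data for this comparison (16800 genes) 67 genes were changed 1.5-fold, 67 were changed 2-fold and 66 were changed 4-fold. Of the changed genes 47.8%, 92.5% and 100% were recovered in that order, with 6 false calls. All were drawn from genes above a minimum expected count, so recovery at lower levels was not measured. Alternatives used other scalings, filters and library sets, DESeq2 1.42.0 and, added later, offsets for transcript length and GC content.

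The step and the 43 gene lists (785 symbols, 11 not found) were chosen with earlier results of these data known, and lists were counted, not tested as sets. Named genes were the 15 largest rises and 15 largest falls among called, non-overlapping genes of at least 5 CPM on average with an ordinary gene name, up to 4 called members a list, a fixed set, the 5 largest differences from the K36M step in each direction and up to 10 genes first seen at d8. Gene coordinates come from GENCODE in mm9 (37205 of 37620 identifiers matched), promoter windows from RefSeq (GRCm38.p6), matched by symbol for 11133 of 16893 tested symbols. Figures were drawn with matplotlib 3.10.9.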

Additional observations from a re-analysis of the deposited data

Results flagged for a closer look

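The step from d6 to d8 differed between WT and K36M cells at 6591 genes (38.9% of those tested) by the test of the difference itself in the edgeR fit. Among genes of at least 5 CPM on average over the 8 libraries, the 5 largest positive differences (WT minus K36M change, log2) were those of Rbmxl2 at 7.50, Dppa5a at 7.46, Ooep at 5.79, Nlrp4f at 5.78 and Krt17 at 5.51. In WT cells Rbmxl2 and Nlrp4f had 0 counts at d6, so their fitted differences depend on the prior count; against a floor of 3 counts over the group their WT rises were at least 18.5-fold and at least 7.17-fold. In K36M cells Rbmxl2 averaged 10.9 CPM at d6 and 14.6 at d8, Ooep 22.6 and 19.6, and Nlrp4f 9.34 and 15.9. The 5 largest negative differences were those of Pappa at -3.39, Aak1 at -2.91, Atxn1 at -2.78, Gdap10 at -2.68 and Amot at -2.54. Of these 5, Amot fell in WT cells (20.8 and 23.2, then 14.3 and 14.8 CPM; edgeR adjusted p = 0.00302) while its K36M means were 6.75 and 26.2 CPM, and the WT change of the other 4 did not pass. The difference for Pappa did not pass without K36M d6 replicate 1 (-3.45, edgeR adjusted p = 0.114) or replicate 2 (-3.32, adjusted p = 0.116). The K36M d6 libraries that stand apart from each other enter all of these values, and their part beyond leaving each out was not tested.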

How the results depend on the processing

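The edgeR fit called 2722 genes. RLE scaling called 2724, DESeq2 2936 and upper-quartile scaling 2686, and 2589 genes were shared between DESeq2 and edgeR. The count differed with the libraries in the fit, which also changed the genes tested (14219 with 4 libraries against 16932): it was 4661 with only the 4 WT d6 and d8 libraries (2430 higher, 2231 lower) and 4422 without the K36M d6 libraries (2130 lower), and with only WT libraries 1862 were lower. A test against a fold of 1.5 called 327 (310 higher, 17 lower; at least 2-fold 308 and 16). Offsets for length and GC content, chosen after seeing the data, called 4230, with 2266 lower. A filter of 5 CPM left 46 genes at least 2-fold lower. The share of called genes moving the way of iPSC against d0 (88.4%) was 86.5% without a filter, 86.0% with only WT libraries, 85.1% without K36M d6, 97.0% against the fold of 1.5 and 86.5% with the offsets. Genes differing from the K36M step numbered 1851 against the fold of 1.5 and 5407 with the offsets, in place of 6591. The cause of these moves was not tested.

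Leaving out 1 library gave 1083 to 1627 called genes, 685 to 1055 higher, 398 to 668 lower, 352 to 452 at least 2-fold higher, 37 to 85 at least 2-fold lower and an iPSC-direction share of 87.7% to 92.3%. The lowest counts came without d6 replicate 2.

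Whether like-numbered d6 and d8 libraries share more than a number is not stated. Their deviations correlated at 0.0032 over 9574 genes, which cannot decide it with 1 pair of libraries a group. Those of d8 correlated at 0.547 with WT d0, 0.566 with WT d4 and 0.437 with K36M d6, and pairs of groups ranged from -0.730 to 0.784. With the replicate number as a block 2713 genes were called, 2615 of them shared with the unblocked fit, and within the 4 WT libraries 4672 (2431 higher, 2241 lower).

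No named gene that passed changed sign under these alternatives, and 44 of 103 missed the threshold under at least 1. Among named genes that did not pass, Sox2 turned to 0.018 with upper-quartile factors, 0.0015 without a filter, 0.0049 with only the 4 libraries and 0.016 with the block there. Leaving out 1 library gave -0.18 to 0.19 for Sox2, -0.15 to 0.11 for Myc, -0.22 to 0.017 for Snai1 and -0.11 to 0.18 for Thy1, which was -0.092 with the offsets. With 2 libraries a group, 1.5-fold changes were recovered less often than 2-fold changes on simulated data.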
